A study of Mus musculus with 2 samples.

Results

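The immediate early transcription response genes described here were *Fos*, *Fosb*, *Jun*, *Junb*, *Egr1*, *Egr2*, *Egr3*, *Ier2*, *Ier3* and *Dusp1*. They were chosen by name, as AP-1 and Egr transcription factors and feedback genes of the MAPK cascade, and every probe set that the platform annotation assigns to 1 of them alone was used. All 10 were on the array, out of 18193 genes with such a probe set, and they were read by 13 of 34945 probe sets. Of the members, 7 had 1 probe set, and *Jun*, *Egr2* and *Egr3* had 2 each.

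RNA came from cultures of RAW264.7, which is a line of mouse macrophages able to form osteoclasts, after transfection with *Flcn* siRNA or with scramble siRNA. *Flcn* encodes folliculin, a regulator of the Rag GTPases and of the transcription factors TFE3 and TFEB. Both cultures received fresh medium with 10% FCS 24 h after transfection and were harvested 48 h later, and neither the labels nor the array methods name RANKL for these cells. Each condition was measured on 1 Affymetrix Mouse Genome 430 2.0 array, so that no comparison has a replicate check and no p-value was computed, and a difference between the 2 cultures or hybridisations cannot be told apart from one due to the siRNA. Bulk RNA also cannot separate fewer expressing cells from less RNA per cell.

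Immediate early genes are transcribed within minutes of a stimulus from factors already present in the cell, chiefly SRF with its ternary complex partners, CREB and ATF proteins, and they need no new protein synthesis. FOS and JUN family proteins dimerise through leucine zippers to form AP-1, the EGR proteins bind GC-rich DNA through zinc fingers, and DUSP1 removes the phosphates that activate MAP kinases and so ends the signal. In macrophages serum, M-CSF and bacterial products induce them, and their transcripts are short-lived. FOS, with AP-1 partners, is also required in the mouse for osteoclast formation.

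The DNA before the transcription start was searched to show which binding motifs of these factors the genes themselves carry. RefSeq windows of GRCm38.p6 were used for 7 of the 10 members, in 11 windows, and the 250 bases before each start were searched on both strands for 6 motifs. These were the full CRE palindrome TGACGTCA, the AP-1 or ATF variant TGACATCA known from the *Jun* promoter, the AP-1 site TGANTCA, the E-box CACGTG that is the core of sites of the MiT/TFE family, the EGR site GCGNGGGCG, and the CArG box that SRF binds. None of the 6 contains another. The windows of *Jun* and *Dusp1*, the member nearest to the higher threshold and the MAPK phosphatase, are printed in full, with a 30-base stretch of *Egr2* around its CArG box, 5′ to 3′ on the strand of the gene and with the motifs in capitals. The *Jun* window lies at chr4:95052223-95052472 on the minus strand, the *Dusp1* window at chr17:26508473-26508722 on the minus strand and the *Egr2* stretch at chr10:67537787-67537816 on the plus strand.
Jun: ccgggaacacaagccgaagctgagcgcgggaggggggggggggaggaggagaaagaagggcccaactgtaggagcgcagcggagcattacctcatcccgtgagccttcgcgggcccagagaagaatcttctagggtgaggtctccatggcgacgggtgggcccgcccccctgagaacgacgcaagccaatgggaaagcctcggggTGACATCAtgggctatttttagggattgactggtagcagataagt
Dusp1: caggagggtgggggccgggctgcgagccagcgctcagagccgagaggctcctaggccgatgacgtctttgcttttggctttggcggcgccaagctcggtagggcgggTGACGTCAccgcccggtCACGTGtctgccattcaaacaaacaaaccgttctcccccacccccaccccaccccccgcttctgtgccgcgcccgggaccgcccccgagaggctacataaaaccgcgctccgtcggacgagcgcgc
Egr2: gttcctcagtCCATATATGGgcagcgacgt

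In *Jun* the capitals mark TGACATCA, 45 to 38 bases before the start. In *Dusp1* they mark TGACGTCA, 143 to 136 bases before the start, and CACGTG, 126 to 121 bases before it. In *Egr2* they mark the CArG box, 72 to 63 bases before 1 of its 5 annotated starts. A CArG box lay in 4 of the 5 *Egr2* windows, but these hold only 2 distinct boxes, since the starts are close and 1 box is shared, and the remaining window held CACGTG. *Fosb* held GCGNGGGCG 50 to 42 bases before its start, and the windows of *Fos*, *Junb* and *Ier3* held none of the 6 motifs within 250 bases. Among all 32851 windows of the same length, TGACGTCA was found in 1.55%, TGACATCA in 2.93%, TGANTCA in 6.75%, CACGTG in 6.02%, GCGNGGGCG in 4.7% and the CArG box in 1.47%. A match describes the letters and is not a measured site.

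Most immediate early genes had nearly the same signal on both arrays. Of the 9 members above the signal filter, 0 were higher and 1, *Egr3*, was lower in *Flcn* siRNA cells by 1.5-fold or more, while 5.85% of the 10285 genes above the filter were higher and 5.52% were lower by as much. The filter was a geometric mean signal of 13.19, the geometric mean of the array medians of 13.6 with *Flcn* siRNA and 12.8 with scramble siRNA. The 9 log2 ratios, with *Flcn* siRNA on top, had a median of -0.09, against 0.01 over all genes above the filter, and 4 were above 0 and 5 below it. When each array was instead scaled to its median signal, 8 of the 9 were below 0, including *Egr1*, *Egr2* and *Ier2*, which were above 0 as deposited. The same scaling changed the calls over all genes from 602 higher and 568 lower to 418 higher and 807 lower. Technical scatter, which does not stand in for replicates, was read from genes with several probe sets: probe sets that read the same gene scattered with a median SD of 0.19 in log2 ratio (5034 genes). Of the 9 members, 6 were closer to 0 than this, and *Fos*, *Jun* and *Egr3* were farther.

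**Figure D1:**
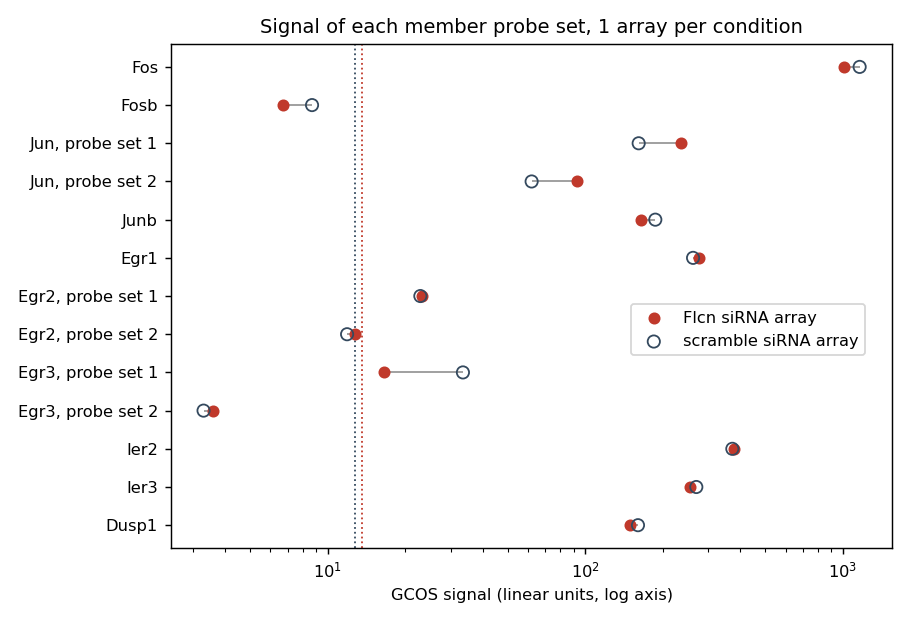
Deposited signal (linear units on a log axis) of each of the 13 member probe sets on the *Flcn* siRNA array (filled circles) and the scramble siRNA array (open circles), 1 array each, with the array medians of 13.6 and 12.8 as dotted lines. Most pairs overlap or nearly overlap; both *Jun* probe sets have the filled circle to the right, and the first *Egr3* probe set has it to the left.

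Among the 4 AP-1 members, *Jun* was the only one with a higher signal in *Flcn* siRNA cells. *Jun* encodes c-JUN, the main partner of FOS and the target of JNK. Its first probe set read 235.7 with *Flcn* siRNA and 161.1 with scramble siRNA, a 1.46-fold difference (log2 ratio 0.55). The second probe set, hybridised to the same RNA on the same 2 arrays, read 93.1 with *Flcn* siRNA and 61.9 with scramble siRNA (log2 ratio 0.59). The probe sets thus differed by 0.04 in log2 ratio, and the *Flcn* siRNA array was the higher one in both. *Jun* is represented by its brighter probe set, which falls just short of the 1.5-fold threshold, whereas the dimmer one falls just past it. By that value *Jun* stood 695th from the top of 10285 genes, and 6.76% of genes were at least as high.

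*Fos* and *Junb* had slightly lower readings on the *Flcn* siRNA array. *Fos*, the partner of JUN in classical AP-1, read 1010.5 with *Flcn* siRNA and 1160.3 with scramble siRNA (log2 ratio -0.20). *Junb*, which forms AP-1 dimers of lower activity than those of c-JUN, read 165.2 with *Flcn* siRNA and 186.9 with scramble siRNA (log2 ratio -0.18). Neither was called: 51.4% of genes were at least as far from 0 as *Fos* and 55.6% at least as far as *Junb*. The log2 ratio of *Jun* exceeded that of *Fos* by 0.75 and that of *Junb* by 0.73. *Fosb*, the remaining FOS member, read 6.7 with *Flcn* siRNA and 8.7 with scramble siRNA, both under the array medians, so no ratio is given for it.

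Among the Egr factors, zinc finger proteins of which EGR1 and EGR2 take part in macrophage differentiation, *Egr3* was lower in *Flcn* siRNA cells while *Egr1* and *Egr2* had ratios near 0. *Egr1* read 276.8 with *Flcn* siRNA and 261.9 with scramble siRNA, a log2 ratio of 0.08 that became -0.01 with median scaling. *Egr2* read 23.3 with *Flcn* siRNA and 22.9 with scramble siRNA by its first probe set, a log2 ratio of 0.03 that was below 0 with median scaling and with quantile normalisation. Its second probe set read 12.8 with *Flcn* siRNA and 11.9 with scramble siRNA, under the median of each array. *Egr3*, a factor best known from lymphocytes, neurons and muscle spindles, was the 1 member called. Its first probe set read 16.5 with *Flcn* siRNA and 33.5 with scramble siRNA, so it was 2.03-fold lower in *Flcn* siRNA cells (log2 ratio -1.02) and stood 103rd from the bottom of 10285 genes, with 1.00% at least as low. The other *Egr3* probe set, at 3.6 with *Flcn* siRNA and 3.3 with scramble siRNA, was under the median on both arrays and so gives no second reading.

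Large ratios were commoner at the low signals where *Egr2* and *Egr3* lay. Among the 2184 genes with a geometric mean signal between 13.19 and 50, 14.6% were higher and 9.84% lower by 1.5-fold or more, against 4.99% and 5.24% of the 3629 genes between 50 and 200, which include *Jun*, *Junb* and *Dusp1*. Among the 4472 genes over 200, which include *Fos*, *Egr1*, *Ier2* and *Ier3*, the shares were 2.28% higher and 3.65% lower. The median size of the log2 ratio, whatever its sign, was 0.33, 0.21 and 0.17 in these ranges of rising signal. The part of low signal in the *Egr3* ratio was not tested.

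**Figure D2:**
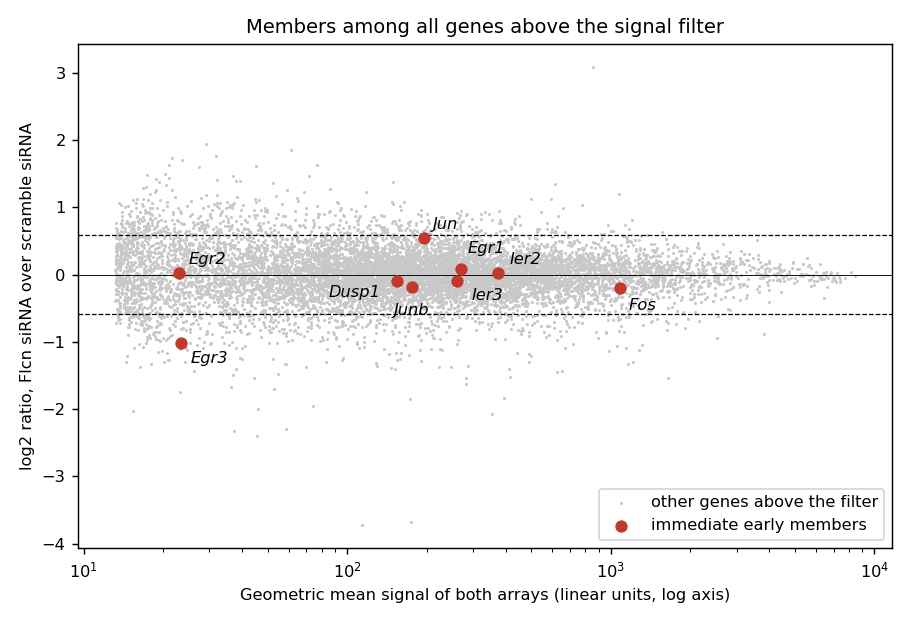
Log2 ratio (*Flcn* siRNA over scramble siRNA) against the geometric mean signal of both arrays (log axis) for 10285 genes above the filter (grey), with the 9 measured members in red and dashed lines at 1.5-fold. *Egr3* lies below the lower line among the dim, widely scattered genes, *Jun* just under the upper line, and the other 7 near 0.

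None of the feedback genes was called, and each had a log2 ratio no farther than 0.10 from 0. *Ier2*, a nuclear protein induced by growth factors, read 376.9 with *Flcn* siRNA and 372.0 with scramble siRNA (log2 ratio 0.02, and -0.07 with median scaling). *Ier3*, a stress-induced regulator of survival and of ERK signalling, read 253.7 with *Flcn* siRNA and 269.6 with scramble siRNA (log2 ratio -0.09). *Dusp1*, the phosphatase of p38, JNK and ERK that limits cytokine production by macrophages, read 149.6 with *Flcn* siRNA and 160.1 with scramble siRNA (log2 ratio -0.10). Of all genes, 94.6% were at least as far from 0 as *Ier2*, 76.3% as *Ier3* and 73.9% as *Dusp1*.

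**Figure D3:**
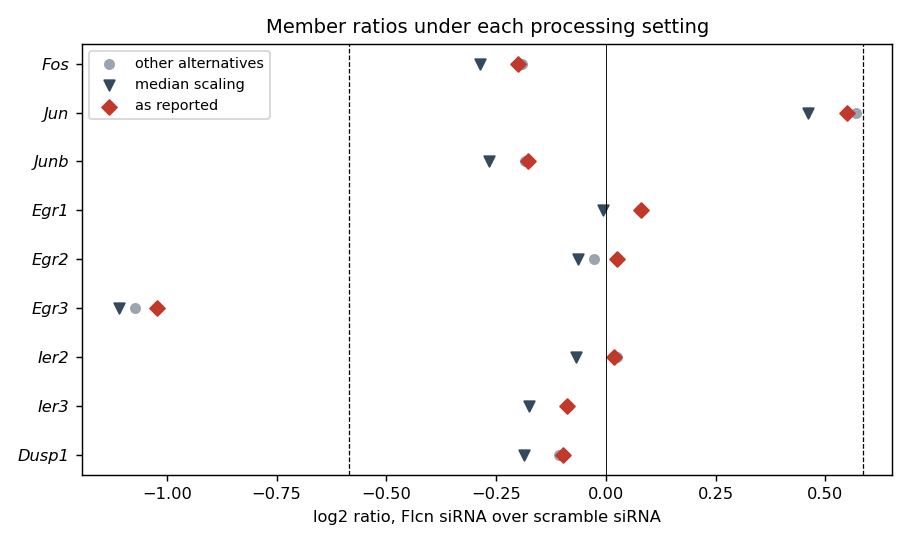
Log2 ratio (*Flcn* siRNA over scramble siRNA) of the 9 measured members as reported (red diamonds), with median scaling (triangles) and under the other processing alternatives (grey circles), with dashed lines at 1.5-fold. *Jun* stays between 0.46 and 0.57 and *Egr3* between -1.11 and -1.02, and median scaling takes *Egr1*, *Egr2* and *Ier2* below 0.

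The other genes of the same response were described by lists, of which each is given by its counts and median. Of 15 measured AP-1 and related bZIP factors other than the members, 0 were called higher or lower, beside 5.85% and 5.52% of all genes. Of the 15, 11 were below 0, as were 4942 of the 10285 genes above the filter. Over all genes above the filter the median was 0.01, and that of the 15 was -0.16. That median ran from -0.25 to -0.04 over the processing settings. Probe sets above the filter went both ways for *Fosl2* (-0.18 and 0.81), *Crem* (-0.30 and 0.23), *Atf2* (-0.20 to 0.41) and *Creb1* (-0.26 to 0.35). For *Mafg* and *Atf4* they were all below 0. The lowest were *Nfil3*, a bZIP repressor, with 193.7 with *Flcn* siRNA and 265.5 with scramble siRNA (log2 ratio -0.45), *Mafk* (-0.39) and *Crem* (-0.30). The highest were *Maff* (0.30), the JUN dimerisation protein gene *Jdp2*, with 517.4 with *Flcn* siRNA and 424.9 with scramble siRNA (0.28), and the stress-induced *Atf3*, with 724.9 with *Flcn* siRNA and 624.4 with scramble siRNA (0.22). *Jund*, the third JUN gene, had a log2 ratio of -0.02. Of the EGR corepressor genes, *Nab2* read 103.8 with *Flcn* siRNA and 113.2 with scramble siRNA (-0.13) and *Nab1* 473.7 with *Flcn* siRNA and 464.4 with scramble siRNA (0.03), and *Egr4* was under the median on both arrays.

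Among 46 measured immediate early genes outside the 10, 3 were higher (6.52%) and 6 were lower (13.0%), beside 5.85% and 5.52% of all genes. Their median was -0.12, and 27 were below 0. With median scaling 2 were higher and 7 lower, *Nr4a1* falling short of the threshold, and with the filter at the 75th percentile of signal 1 was higher and 3 were lower. The higher ones were *Id2*, an inhibitor of bHLH factors, with 65.8 with *Flcn* siRNA and 33.7 with scramble siRNA (1.95-fold), *Tnfaip3*, which encodes the NF-κB inhibitor A20, with 152.3 with *Flcn* siRNA and 93.6 with scramble siRNA (1.63-fold), and the orphan nuclear receptor gene *Nr4a1*, with 56.1 with *Flcn* siRNA and 37.0 with scramble siRNA (1.52-fold). The other *Id2* probe set above the filter had a log2 ratio of 0.43, short of the threshold. *Ptgs2*, the inducible cyclooxygenase, read 33.7 with *Flcn* siRNA and 80.7 with scramble siRNA (log2 ratio -1.26). *Gadd45a*, a growth arrest gene, read 89.9 with *Flcn* siRNA and 177.4 with scramble siRNA (-0.98). *Ier5l* was at least 1.87-fold lower, with 8.6 with *Flcn* siRNA, which is under the median, and 25.4 with scramble siRNA. The remaining 3, named after their values were seen, were the GTPase gene *Rhob* (-0.85) and the Krüppel-like factors *Klf2* (-0.79) and *Klf4* (-0.71).

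Genes that act on the MAPK cascade, the pathway to which *Dusp1* belongs, were split into inhibitors, and kinases with upstream factors. Of 17 measured MAPK phosphatases and Ras-MAPK inhibitors, 2 were higher and 2 lower (11.8% each, beside 5.85% and 5.52% of all genes), with a median of 0.10. Every gene called had a geometric mean signal between 13.19 and 50, a range where 14.6% of all genes were higher and 9.84% lower. With only the probe sets unique to 1 transcript 1 was higher, and with the 75th percentile filter 0 were called. *Dusp14* was at least 1.98-fold higher, with 25.4 with *Flcn* siRNA and 12.5 with scramble siRNA, and *Dusp5* was 1.64-fold higher, with 23.9 with *Flcn* siRNA and 14.6 with scramble siRNA. *Dusp2* read 29.1 with *Flcn* siRNA and 49.9 with scramble siRNA (log2 ratio -0.78), and the Sprouty gene *Spry1* read 8.9 with *Flcn* siRNA, under the median, and 20.6 with scramble siRNA (-0.60 or lower). Of 23 measured kinases and upstream SRF, TCF and CREB factors, 0 were higher and 1 was lower (4.35%, beside 5.52% of all genes). The gene called was *Mapk7*, which encodes ERK5, with 44.3 with *Flcn* siRNA and 68.1 with scramble siRNA (-0.62). With unique probe sets or with the 75th percentile filter 0 of the list were lower. The 23 had a median of 0.01, which turned to -0.08 with median scaling. *Map2k4*, an activator of JNK, had the highest ratio of these, 131.0 with *Flcn* siRNA and 92.9 with scramble siRNA (0.50). The other *Map2k4* probe set above the filter had a log2 ratio of 0.15. The brightest probe set of the JNK gene *Mapk8* read 160.2 with *Flcn* siRNA and 158.9 with scramble siRNA (0.01). Its 4 probe sets above the filter ran from 0.01 to 0.80, all above 0 as deposited, so they do not give 1 size. *Mapk9*, another JNK gene, read 322.9 with *Flcn* siRNA and 286.4 with scramble siRNA (0.17). *Srf* itself read 118.1 with *Flcn* siRNA and 136.9 with scramble siRNA (-0.21) by its brightest probe set. Its other probe set above the filter had a log2 ratio of 0.12, so they do not give 1 direction.

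Early macrophage activation genes, which many of the same stimuli induce, had a median log2 ratio of 0.31. Of 16 measured, 6 were higher (37.5%) and 0 lower, beside 5.85% and 5.52% of all genes. This depended on the setting: median scaling gave 3 higher and 1 lower, quantile normalisation 4 higher, and the 75th percentile filter 2 higher with a median of 0.08. Of the 16, 5 were below 0, the lowest being *Traf1*, an adaptor of TNF receptors, with 47.4 with *Flcn* siRNA and 69.7 with scramble siRNA (-0.56), *Relb* (-0.30) and *Cxcl2* (-0.29). The highest were *Rel*, an NF-κB subunit, with 46.4 with *Flcn* siRNA and 22.1 with scramble siRNA (2.10-fold), *Cxcl1*, at least 1.75-fold higher, with 22.4 with *Flcn* siRNA and 8.8 with scramble siRNA, and the chemokine gene *Ccl4*, with 361.6 with *Flcn* siRNA and 209.2 with scramble siRNA (1.73-fold). Of 14 measured heat shock and stress genes, 2 were higher and 2 lower (14.3% each, beside 5.85% and 5.52% of all genes). *Hsph1* (1.69-fold) and *Hspb1* (1.67-fold) were higher, and *Ddit3* (-0.74) and *Atf5* (-0.64), which belong to the integrated stress response, were lower. With unique probe sets, however, 0 were higher and 1 was lower. The 12 measured reference genes had a median of 0.01 and no call.

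**Figure D4:**
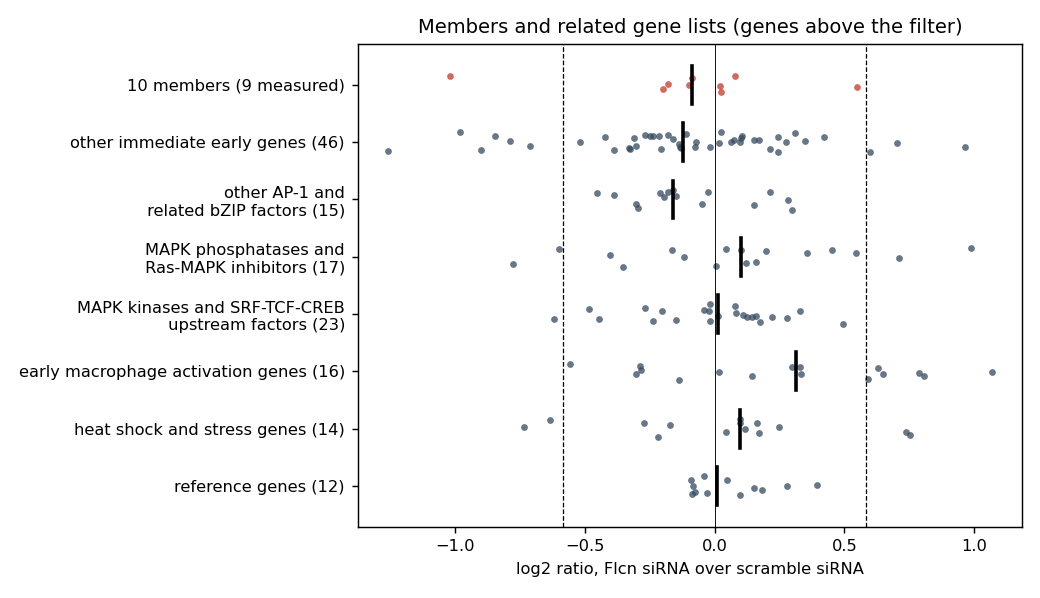
Log2 ratio, *Flcn* siRNA over scramble siRNA, of measured genes among the 10 members and in 7 related lists (points, number measured in brackets), with each median as a bar and dashed lines at 1.5-fold. The members spread around 0 except *Egr3* and *Jun*, and the early macrophage activation genes have a median of 0.31, which was 0.08 with the 75th percentile filter.

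The labels were checked on *Flcn* itself and on the TFE3 target *Gpnmb*. By 1 probe set *Flcn* read 145.4 with *Flcn* siRNA and 208.6 with scramble siRNA (log2 ratio -0.52). By another it read 206.2 with *Flcn* siRNA and 240.9 with scramble siRNA (-0.22). Neither reached the 1.5-fold threshold, and the remaining *Flcn* probe set was under the median on both arrays. *Gpnmb* read 2500.0 with *Flcn* siRNA and 294.3 with scramble siRNA (3.09). All 12 macrophage markers were above the filter, with summed signals of 29003.0 with *Flcn* siRNA and 29259.3 with scramble siRNA, though 1 of them, the Fc receptor gene *Fcgr1*, was 2.72-fold lower, with 380.1 with *Flcn* siRNA and 1032.6 with scramble siRNA. The 6 of 10 osteoclast markers above the filter summed to 602.7 with *Flcn* siRNA and 439.3 with scramble siRNA. All 6 had ratios above 0 as deposited (5 with median scaling, without *Ocstamp*), as did 5314 of the 10285 genes above the filter. *Ctsk* was 3.40-fold higher, with 58.4 with *Flcn* siRNA and 17.2 with scramble siRNA. *Atp6v0d2* was 2.77-fold higher, with 119.3 with *Flcn* siRNA and 43.0 with scramble siRNA. These 2 were called (33.3%, beside 5.85% of all genes). *Ctsk* lay in the signal range from 13.19 to 50, where 14.6% of genes were higher. *Itgb3* was under the median on both arrays. Of the other cell types, 1 of 8 fibroblast, 1 of 6 epithelial, 0 of 7 lymphocyte and 1 of 7 neutrophil and mast cell markers were above the filter. These were *Col1a2* and *Epcam*, both under the median with *Flcn* siRNA, and *S100a8*. *S100a8* was at least 2.15-fold higher, with 27.5 with *Flcn* siRNA and 11.3, under the median, with scramble siRNA. *Col1a1* and *Cdh1* were under the median on both arrays. The part of the osteoclast markers and of *Fcgr1* in the ratios of *Jun* and *Egr3* was not tested.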

How the data were processed

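RNA from RAW264.7 cultures given *Flcn* siRNA or scramble siRNA was hybridised to 1 array per culture. The authors processed the arrays with GCOS, version 1.0, and deposited, for every probe set, a signal intensity on a linear scale from each array. The scaling target is not given in the sources used here, but the mean signal without the top and bottom 2% was 99.4 on both arrays, and no detection calls were used here. Of 45101 probe sets, 64 were controls, 932 named several genes and 9160 named none, and these were left out. Symbols were updated by Entrez ID for 34741 of 34945 probe sets. Each gene was represented by the brightest of its probe sets by geometric mean over both arrays (a signal of 0 read as 1). Values below an array's median were set to that median, and the log2 ratio (*Flcn* siRNA over scramble siRNA) was computed without further scaling. A ratio with 1 signal under the median is a bound, given as "at least".

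Genes were called by size, at 1.5-fold or more, since 1 array per condition allows no test, and precision is limited by having 2 arrays. The members and lists were chosen with earlier results of these data known. The text names all 10 members and, for each list, at most the 3 highest and 3 lowest genes, every called gene where 5 or fewer were called, and a few others that bear on the members. List genes without a value are not analysed here. Python 3.11.15, numpy 2.4.6 and pandas 2.3.3 were used, and the calling step was tested on simulated data. The simulation changed only genes brighter than *Egr3*, by at least 2-fold. It therefore does not cover the low signal of *Egr3* or a ratio as small as that of *Jun*. The alternatives were median scaling, quantile normalisation, another choice of probe set (3 ways), another floor (2 ways), another signal filter (2 ways) and a 2-fold threshold.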

Additional observations from a re-analysis of the deposited data

How the results depend on the processing

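Over 10 alternatives, 9 of which give ratios, all 78 member ratios moved by less than the probe set spread of 0.19, and the members' median ran between -0.18 and -0.04. Most of these ratios could not move. The other floors and filters leave a ratio unchanged where both signals are above the medians, and probe set choices do so where 1 probe set is measured. Only median scaling, quantile normalisation and, for *Jun*, the mean of its probe sets changed a value, so the count of 78 does not measure robustness. *Jun* was under the 1.5-fold threshold throughout. *Egr3* was lower by at least 2-fold wherever it was measured, but with a filter at the 75th percentile of signal it fell out and 0 members were lower. That filter left 214 genes higher and 268 lower, and a 2-fold threshold left 87 higher and 113 lower, of 602 and 568. Low signal limits *Fosb*, *Egr2* and *Egr3* most. No paired analysis was possible because each condition had 1 array.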
